A study of Mus musculus with 16 samples.

Results

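The 10 genes described here encode regulators of mitochondrial fusion, fission and biogenesis: Mfn1, Mfn2, Opa1, Dnm1l, Fis1, Mff, Ppargc1a, Ppargc1b, Tfam and Nrf1. They were chosen by name, with earlier results of these data known, from the 25745 genes of a count table of 16 RNA-seq libraries. All 10 were in the table and all 10 passed the filter on low counts that left 14445 genes for testing. Ppargc1a passed it only through the lentivirus libraries and therefore had to differ between the vectors. The cells were 6DT1, a mouse mammary cancer line labelled with the strain FVB/N1, and no label says whether a line is 1 clone. Libraries 1 to 4 came from untreated cells given a CLIC4-expressing lentivirus (CLIC4 belongs to the chloride intracellular channel proteins), and libraries 5 to 8 from such cells kept with 1 µM hydrogen peroxide (H2O2) for 24 h. Libraries 9 to 12 came from untreated cells given a lentivirus with an empty vector, and libraries 13 to 16 from empty-vector cells kept with 1 µM H2O2 for 24 h. All cells had therefore been transduced. The sample descriptions call the empty-vector cells CLIC4 knockout and the lentivirus cells wild type, which the series text does not, so the groups are named here by their vector.

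Mitochondria fuse and divide continuously. Mitofusins join the outer membranes and the dynamin-related protein OPA1 joins the inner ones, while the dynamin-related GTPase encoded by Dnm1l cuts mitochondria after adaptors such as MFF and FIS1 have brought it to the outer membrane. The amount of mitochondria is set in part by the coactivators encoded by Ppargc1a and Ppargc1b. They act with factors such as nuclear respiratory factor NRF1 on nuclear genes, including Tfam. The Tfam product packages mitochondrial DNA and helps to transcribe it.

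The proximal promoters of 5 members are shown. Mfn2, Fis1, Ppargc1a and Nrf1 are the members called different between the vectors both with and without H2O2 when all 16 libraries are fitted, and Opa1 is the member with an NRF1 site. Each run is the 250 bases before the gene's start in RefSeq (build GRCm38.p6), 5′ to 3′ on the gene's strand. RefSeq lists several starts for some members, Mfn2, Fis1 and Nrf1 among them, and the run nearest the GENCODE start is shown. The motif counts of the members took a match at any listed start. Runs nearest the GENCODE start gave the same members. Capitals mark matches to TGACG (the core of the cyclic AMP response element, read as CGTCA on the other strand) in Mfn2 and Ppargc1a, to the palindromic NRF1 site in Opa1 and to the ETS site CCGGAAG, bound by the factor encoded by Gabpa among others, in Fis1.
Mfn2 (chr4:147904699-147904948, minus strand): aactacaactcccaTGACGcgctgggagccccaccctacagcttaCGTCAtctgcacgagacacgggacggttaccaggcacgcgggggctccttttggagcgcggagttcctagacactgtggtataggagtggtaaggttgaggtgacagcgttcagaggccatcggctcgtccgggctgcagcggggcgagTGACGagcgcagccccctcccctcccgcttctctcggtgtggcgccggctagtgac
Opa1 (chr16:29579084-29579333, plus strand): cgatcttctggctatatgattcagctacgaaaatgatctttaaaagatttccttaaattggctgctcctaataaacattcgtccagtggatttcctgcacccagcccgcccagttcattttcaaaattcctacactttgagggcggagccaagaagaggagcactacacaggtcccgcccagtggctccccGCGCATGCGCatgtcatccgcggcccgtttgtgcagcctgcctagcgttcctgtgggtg
Fis1 (chr5:136953025-136953274, plus strand): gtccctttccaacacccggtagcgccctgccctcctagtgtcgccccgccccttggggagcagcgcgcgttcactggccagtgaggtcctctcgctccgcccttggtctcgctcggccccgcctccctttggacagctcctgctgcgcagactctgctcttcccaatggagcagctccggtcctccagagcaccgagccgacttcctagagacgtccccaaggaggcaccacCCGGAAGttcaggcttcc
Ppargc1a (chr5:51567726-51567975, minus strand): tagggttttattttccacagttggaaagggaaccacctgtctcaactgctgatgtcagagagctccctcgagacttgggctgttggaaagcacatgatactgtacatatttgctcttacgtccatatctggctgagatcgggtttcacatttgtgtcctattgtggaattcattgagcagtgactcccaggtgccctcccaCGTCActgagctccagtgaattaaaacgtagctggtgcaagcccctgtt
Nrf1 (chr6:30047738-30047987, plus strand): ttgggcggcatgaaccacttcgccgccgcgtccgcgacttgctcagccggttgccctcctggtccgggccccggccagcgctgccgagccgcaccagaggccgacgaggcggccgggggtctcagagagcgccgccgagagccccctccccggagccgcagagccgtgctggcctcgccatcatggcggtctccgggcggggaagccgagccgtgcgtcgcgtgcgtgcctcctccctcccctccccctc

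RefSeq promoters were at hand for 9 of the 10 members, Ppargc1b being the other, and 7 motifs were searched on both strands. The NRF1 site, whose letters are the capitals of Opa1, stood in Opa1 alone of the 9 members, and in 0.782% of all 32851 promoters of this length. A looser form that includes it, with any base in place of its T, was found in 3.74% of all promoters and again in Opa1 alone of the members. TGACG stood in Mfn1, Mfn2, Mff and Ppargc1a and in 17.8% of all promoters, and CCGGAAG in Mfn1, Fis1 and Tfam and in 6.91% of all. Counted per gene at any listed start, as the members were, TGACG stood in 19.8% of 27025 genes and CCGGAAG in 7.83%. The NRF1 site stood in 0.877% of these genes and its looser form in 4.23%. The full cyclic AMP response element TGACGTCA (1.55% of all promoters), the E-box CACGTG (6.02%) and the estrogen-related receptor element TCAAGGTCA (0.387%) were in no listed window of the 9 members. These matches describe the letters of the windows, and binding was not measured.

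Totals ran from 47.1 M to 61.9 M counts per library. Library 11, of untreated empty-vector cells, stood apart: its correlation with the other 3 libraries of its group over genes was 0.956, against at least 0.9989 for every other pair within a group, so the members' untreated differences are given with and without it. Clic4, the check of the labels, was lower with the empty vector in untreated cells (log2 change -1.79, standard error (SE) 0.313, edgeR adjusted p = 2.88e-04; -2.43 without library 11) and in treated cells (-2.52, SE 0.322, edgeR adjusted p = 1.78e-05). In library 11 Clic4 stood at 138 CPM (counts scaled to library size), against 41.5, 41.2 and 44.7 CPM in libraries 9, 10 and 12. Libraries 1 to 4 held 222 to 244 CPM, so library 11 lay between the vectors, and the reason was not tested. The keratins Krt8, Krt18 and Krt19 were present in every group, while Epcam and Cdh1, which define epithelial cells, had group means of at most 3.24 and 0.404 CPM. Both of these means were of untreated empty-vector cells with library 11 included. In the other groups they were at most 0.0221 CPM (Epcam) and 0.0487 CPM (Cdh1). Marker sums differed between the vectors: 8 epithelial markers summed to 921 to 1029 CPM with the empty vector, 1399 in library 11 and 565 to 618 with the lentivirus; 3 immune markers, nearly all Cd68 with Ptprc near 0, to 218 to 253, 369 and 77.3 to 92.6; 4 endothelial markers, mainly Cdh5, to 3.53 to 4.73, 7.78 and 79.9 to 85.9. The 5 fibroblast markers summed to 17.0 to 20.4, 21.9 and 13.4 to 18.0 CPM, with Pdgfra and Col1a2 called higher and Col1a1 and Dcn lower in treated empty-vector cells (edgeR log2 change 1.66, 1.94, -1.56 and -5.14), and the 3 adipocyte markers to at most 0.181 CPM in any library. Their part in the results below was not tested. Whether the 4 libraries of a group are separate cultures is not in the labels; the p-values therefore reflect the spread among these libraries only, and that spread may be technical.

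Levels of a gene across libraries are given in CPM, with library sizes scaled by the trimmed mean of M-values (TMM). Differences are log2 changes, empty vector minus lentivirus or treated minus untreated, from edgeR's quasi-likelihood test, and a gene is called when its p, adjusted over all tested genes by Benjamini-Hochberg, is under 0.05. In untreated cells 6 of the 10 regulators were called between the vectors: Mfn2 and Nrf1 higher with the empty vector, and Fis1, Mff, Ppargc1a and Ppargc1b lower. Ppargc1a is counted here and below although it passed the filter only through the lentivirus libraries. Of all tested genes 53.3% were called, 29% higher and 24.3% lower, so the members' share was near that of all genes. Without library 11 9 members were called, with 4 higher (Opa1 and Dnm1l joining) and 5 lower (Tfam joining), while 74.4% of all genes were called (37% higher, 37.3% lower). In treated cells 4 members were called, Mfn2 and Nrf1 higher and Fis1 and Ppargc1a lower, against 42.1% of all genes (22.1% higher, 20% lower). Without library 11 there were 8, with Dnm1l added above and Mff, Ppargc1b and Tfam below, against 73.8% (36.6% higher, 37.2% lower). Mfn1 was the member called in neither condition, with or without library 11. By CPM alone, 6 members did not overlap between the vectors in untreated cells (Mfn2 and Nrf1 above, Mff, Ppargc1a, Ppargc1b and Tfam below) beside 49.6% of all genes, and 9 without library 11 beside 71.8%. In treated cells 6 did not overlap (Mfn2, Dnm1l and Nrf1 above, Fis1, Ppargc1a and Ppargc1b below), beside 69.4% of all genes, or 69.1% of those tested without library 11. The median log2 change of the 10 members was -0.17 in untreated and -0.06 in treated cells, beside 0.03 and -0.01 over all tested genes, and without library 11 it was -0.05 in untreated cells beside -0.02.

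**Figure D1:**
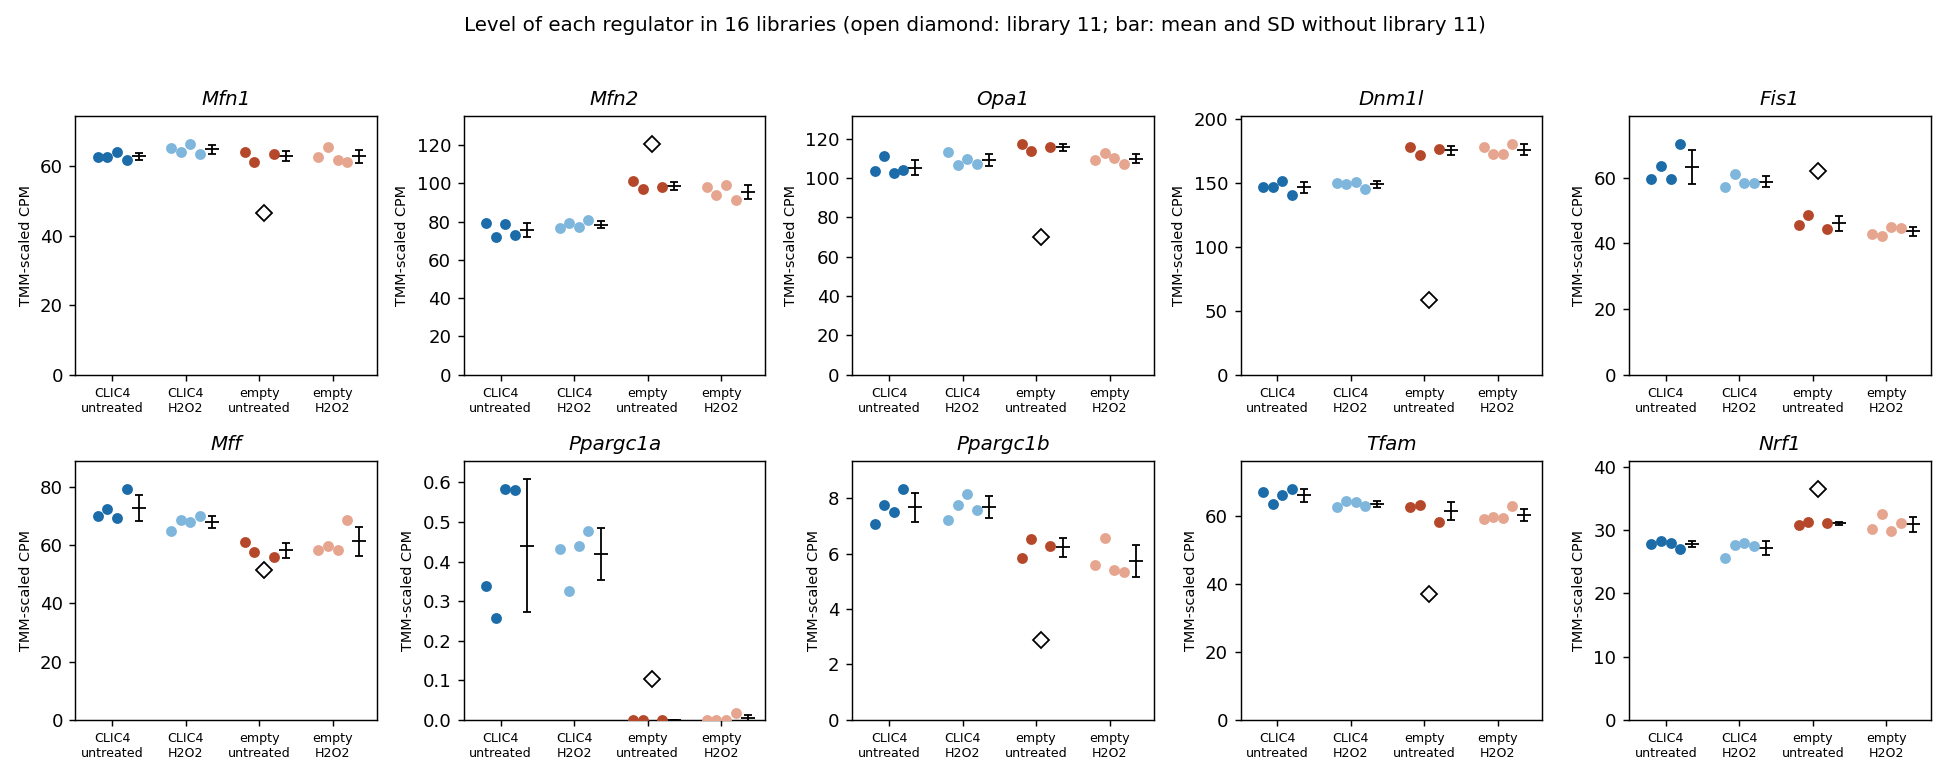
Level of each of the 10 regulators in each library in TMM-scaled CPM (vertical axis, from 0), by vector and treatment (horizontal axis). Points are libraries, the open diamond is library 11, and the bar beside each group is its mean and SD without library 11. Mfn2 lies between 91.2 and 121 CPM in the empty-vector libraries and between 72.0 and 80.8 in the lentivirus libraries, while Ppargc1a is at 0 in 6 of the 8 empty-vector libraries.

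Fusion genes were led by Mfn2, the outer-membrane mitofusin that also tethers mitochondria to the endoplasmic reticulum (chr4:147873599-147904704, minus strand, mm10). In untreated cells its level was 101, 96.9, 121 and 98.0 CPM in empty-vector libraries 9 to 12, and 79.2, 72.0, 78.6 and 72.8 CPM in lentivirus libraries 1 to 4. After H2O2 it was 98.1, 94.0, 99.0 and 91.2 CPM in libraries 13 to 16 and 76.8, 79.3, 77.0 and 80.8 CPM in libraries 5 to 8. Every empty-vector library lay above every lentivirus library. The log2 change was 0.46 (SE 0.0697, edgeR adjusted p = 7.69e-05) in untreated cells and 0.28 (SE 0.0696, edgeR adjusted p = 0.00411) in treated cells. It was 0.38 and 0.29 without library 11, and the call held in each of the 26 alternatives run for each condition.

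Mfn1, the other mitofusin (chr3:32529465-32579239, plus strand), did not share this difference. Its level was 64.2, 61.3, 46.4 and 63.4 CPM in libraries 9 to 12 and 62.6, 62.7, 64.1 and 61.8 CPM in libraries 1 to 4. Library 11 was the low one, and the other 7 untreated libraries spanned a narrow and overlapping range. In treated cells empty-vector libraries ranged from 61.3 to 65.4 CPM and lentivirus libraries from 63.6 to 66.4 CPM. With all 16 libraries the untreated log2 change was -0.09 (SE 0.0827, edgeR adjusted p = 0.351). Without library 11 the log2 change was 0.01 in untreated cells (95% interval -0.06 to 0.07, edgeR adjusted p = 0.889) and -0.05 in treated cells (-0.11 to 0.02, edgeR adjusted p = 0.168), and it was called in none of the alternatives, over which the edgeR, DESeq2 or limma adjusted p ran from 0.160 to 0.937 and from 0.168 to 0.933.

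Opa1, the inner-membrane fusion GTPase (chr16:29579334-29654884, plus strand), depended on library 11. Its level was 117, 114, 69.9 and 116 CPM in libraries 9 to 12 and 104, 111, 103 and 104 CPM in libraries 1 to 4. The 3 empty-vector libraries other than library 11 lay above all 4 lentivirus libraries, and library 11 lay below them all. The log2 change was -0.01 (SE 0.122, edgeR adjusted p = 0.929) with library 11 and 0.14 (SE 0.0327, edgeR adjusted p = 8.78e-04) without it. In treated cells the empty-vector range of 107 to 113 CPM lay within the lentivirus range of 106 to 113 CPM, and the log2 change was 0.01 (SE 0.121, edgeR adjusted p = 0.964). On the deposited FPKM scale, which also corrects for transcript length, treated Opa1 stood at 26.2 to 27.4 FPKM with the empty vector and 22.6 to 24.8 FPKM with the lentivirus, so that the groups did not overlap there and the ratio of means was 1.14 in FPKM against 1.01 in CPM. No alternative called the treated difference, limma on FPKM included (limma, DESeq2 or edgeR adjusted p = 0.478 to 1).

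Among the fission genes, Dnm1l, the GTPase that constricts mitochondria (chr16:16312230-16358959, minus strand), had its lowest value in library 11. Its level was 178, 172, 58.03 and 177 CPM in libraries 9 to 12 and 147, 147, 152 and 141 CPM in libraries 1 to 4. With H2O2 the values were 178, 172, 172 and 180.3 CPM in libraries 13 to 16 and 149.6, 149, 151 and 145 CPM in libraries 5 to 8. Apart from library 11, all empty-vector libraries lay above all lentivirus libraries. The 16-library test called neither difference, with log2 changes of -0.00 (SE 0.238, edgeR adjusted p = 0.992) in untreated and 0.24 (SE 0.238, edgeR adjusted p = 0.457) in treated cells. Without library 11 they were 0.26 (SE 0.0299, edgeR adjusted p = 1.57e-07) and 0.24 (SE 0.0278, edgeR adjusted p = 1.53e-07). Library 11 is in neither treated group, and it acted on the treated test through the shared fit. The treated difference was also called by limma voom with quality weights on all 16 libraries (limma adjusted p = 5.51e-07). So it was by edgeR on the treated groups alone (edgeR adjusted p = 2.21e-06), but not by DESeq2 (DESeq2 adjusted p = 0.477).

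Fis1, an outer-membrane adaptor for the fission machinery (chr5:136953275-136966234, plus strand), went the other way. Its level was 45.5, 48.7, 62.2 and 44.3 CPM in libraries 9 to 12 and 59.7, 63.7, 59.5 and 70.3 CPM in libraries 1 to 4. Library 11 alone reached into the lentivirus range. Treated libraries held 42.8, 42.4, 44.9 and 44.6 CPM in libraries 13 to 16 and 57.1, 61.1, 58.3 and 58.5 CPM in libraries 5 to 8, with no overlap. The log2 change was -0.34 (SE 0.0942, edgeR adjusted p = 0.00826) in untreated cells, -0.45 without library 11, and -0.43 (SE 0.0943, edgeR adjusted p = 0.00196) in treated cells. A fit on the 2 untreated groups alone did not call it (-0.33, edgeR adjusted p = 0.0907; 3e-08 to 0.0907 over the alternatives).

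Mff, the adaptor that recruits the Dnm1l product to the outer membrane (chr1:82724890-82752394, plus strand), was called lower with the empty vector in untreated cells. Its level was 61.0, 57.7, 51.7 and 56.0 CPM in libraries 9 to 12 and 69.9, 72.4, 69.5 and 79.4 CPM in libraries 1 to 4, with no overlap (log2 change -0.36, SE 0.0717, edgeR adjusted p = 7.27e-04; -0.32 without library 11). In treated cells it was 58.5, 59.7, 58.4 and 68.8 CPM in libraries 13 to 16 and 65.0, 68.8, 67.9 and 70.1 CPM in libraries 5 to 8. Library 16 lay within the lentivirus range and the other 3 below it. The treated log2 change was -0.15 (SE 0.0716, edgeR adjusted p = 0.114). It passed the threshold without library 11 (-0.15, edgeR adjusted p = 0.0159) and without library 16 (-0.21, edgeR adjusted p = 0.0323). Limma voom with quality weights (limma adjusted p = 5.41e-04) and edgeR on the treated groups alone (edgeR adjusted p = 0.0139) called it too. DESeq2 did not (DESeq2 adjusted p = 0.0672).

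**Figure D2:**
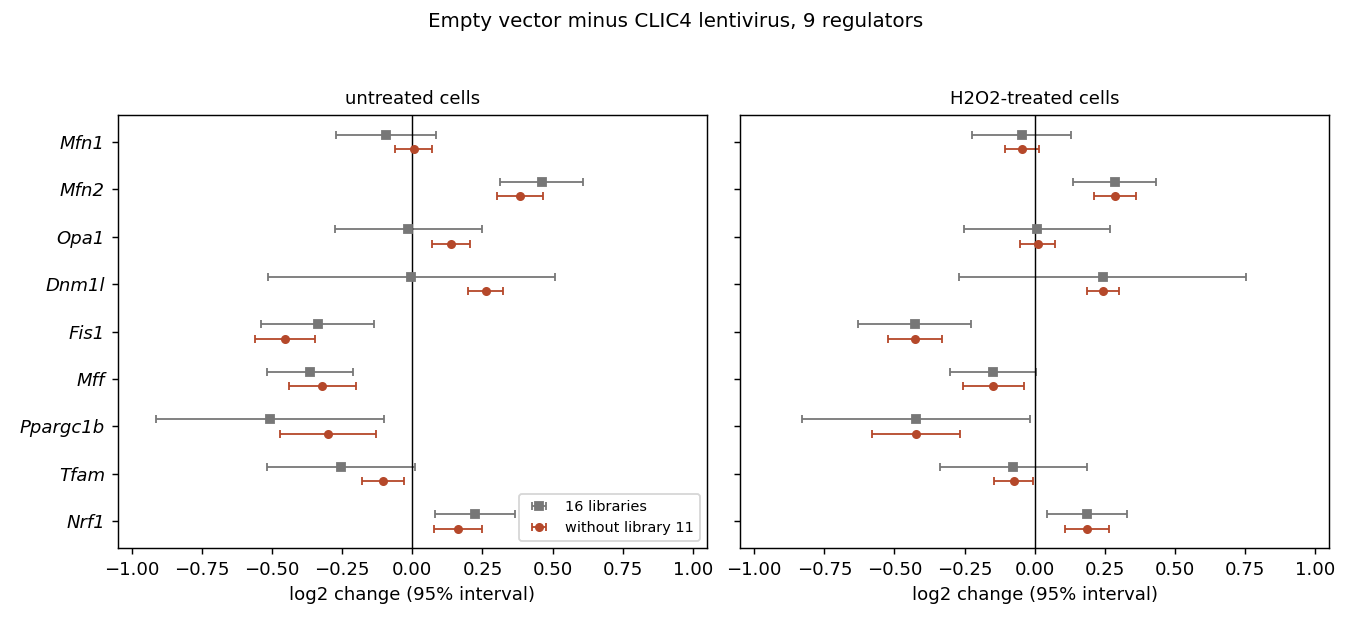
Log2 change, empty vector minus lentivirus, of the 9 regulators other than Ppargc1a in untreated (left) and H2O2-treated cells (right). Squares are the 16-library test, circles the test without library 11, and bars are 95% intervals. Mfn2 lies above 0 and Fis1 below 0 in both panels, and the interval of Dnm1l in untreated cells narrows from -0.51 to 0.51 with library 11 to 0.20 to 0.32 without it.

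The largest difference among the biogenesis regulators was that of Ppargc1a, which encodes the coactivator PGC-1alpha (chr5:51454250-51567726, minus strand). It was rare in every library. Libraries 1 to 4 held 19, 15, 33 and 27 counts and libraries 5 to 8 held 23, 18, 25 and 30. Libraries 9, 10 and 12 held 0 counts and library 11 held 4, while libraries 13 to 15 held 0 and library 16 held 1. Every lentivirus library had counts, and the few counts with the empty vector came from 1 library in each condition. Per group this was 94 counts against 4 in untreated cells, where the lentivirus level was 22.5 times the empty-vector level (95% counting interval 8.51 to 84.4), and 96 against 1 in treated cells, a ratio of 96.9 (17.0 to 3867). Without library 11 the untreated lentivirus level was at least 24.5-fold higher, and without library 16 the treated one was at least 24.4-fold higher, each against a floor of 3 counts over the group. Libraries 11 and 16 held the only counts of their groups, so leaving them out set those groups to 0. The fitted log2 changes of -4.31 (SE 0.750, edgeR adjusted p = 2.72e-04) and -5.99 (SE 0.894, edgeR adjusted p = 7.62e-05) depend on the prior count. Because Ppargc1a passed the filter only through the lentivirus libraries, these p-values add no independent support. In bulk RNA, fewer cells with a transcript and less transcript per cell cannot be told apart.

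Ppargc1b, which encodes the related coactivator PGC-1beta (chromosome 18), was also lower with the empty vector in untreated cells. Its level was 5.86, 6.52, 2.88 and 6.29 CPM in libraries 9 to 12 and 7.09, 7.77, 7.52 and 8.34 CPM in libraries 1 to 4. After treatment it was 5.60, 6.58, 5.41 and 5.33 CPM in libraries 13 to 16 and 7.23, 7.75, 8.17 and 7.57 CPM in libraries 5 to 8. The vectors did not overlap in either condition, and library 11 was the lowest of all. The untreated log2 change was -0.51 (SE 0.189, edgeR adjusted p = 0.0359) and -0.30 (SE 0.0816, edgeR adjusted p = 0.00269) without library 11. The treated one was -0.42 with and without library 11, where the edgeR adjusted p was 0.0877 and 4.5e-05. The untreated call ended without library 2, 3 or 4 (edgeR adjusted p = 0.0683, 0.0603 and 0.0846), without a filter (0.0769), on total counts (0.1035), on the untreated groups alone (0.152) and with limma on log2(FPKM + 0.1) (0.0684) or on unfiltered log2(FPKM + 1) (0.0856), within 0.00209 to 0.152 over all alternatives. The treated difference was called by DESeq2 (adjusted p = 0.0457), by limma voom (2.53e-05) and by edgeR on the treated groups alone (1.7e-04), within 2.53e-05 to 0.291 over its alternatives.

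Nrf1, nuclear respiratory factor 1 (chr6:30047988-30153458, plus strand; not the stress factors encoded by Nfe2l1 and Nfe2l2), was called higher with the empty vector. Its level was 30.8, 31.3, 36.5 and 31.1 CPM in libraries 9 to 12 and 27.9, 28.3, 28.0 and 27.0 CPM in libraries 1 to 4. In treated cells it was 30.1, 32.5, 29.9 and 31.0 CPM in libraries 13 to 16 and 25.5, 27.7, 27.9 and 27.5 CPM in libraries 5 to 8. The vectors did not overlap, though the step was small: 0.22 (SE 0.0664, edgeR adjusted p = 0.0117) untreated and 0.19 (SE 0.0664, edgeR adjusted p = 0.0358) treated on the log2 scale, or 0.16 and 0.19 without library 11. The treated call ended without library 5, 6, 7, 8, 14 or 16 (edgeR adjusted p = 0.0978, 0.0568, 0.0507, 0.0619, 0.0987 and 0.0663), with size factors of the relative log expression (RLE) kind (0.0623), without a filter (0.0723) and with a filter of 10 CPM (0.060), within a range of 1.34e-04 to 0.0987 over the alternatives. The untreated call ended on total counts (0.14, edgeR adjusted p = 0.165) and on the untreated groups alone (0.23, edgeR adjusted p = 0.106). The ratio of empty vector to lentivirus was larger in FPKM (1.26 untreated and 1.32 treated) than in CPM (1.119 and 1.137), without library 11.

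Tfam, the packaging and transcription factor of mitochondrial DNA (chr10:71225464-71238280, minus strand), was called in neither condition with 16 libraries. Its level was 62.9, 63.4, 37.2 and 58.4 CPM in libraries 9 to 12 and 67.0, 63.6, 66.2 and 68.0 CPM in libraries 1 to 4, so that libraries 10 and 2 almost met and library 11 lay far below. With H2O2 it was 59.2, 59.8, 59.4 and 63.0 CPM in libraries 13 to 16 and 62.7, 64.4, 64.3 and 63.2 CPM in libraries 5 to 8. The untreated log2 change of -0.26 (SE 0.123, edgeR adjusted p = 0.0930) passed the threshold without library 11 (-0.10, edgeR adjusted p = 0.0138) and without library 10 (-0.33, edgeR adjusted p = 0.0488). The treated change of -0.08 (SE 0.123, edgeR adjusted p = 0.664) passed it without library 11 (edgeR adjusted p = 0.0458), although library 16 lay within the lentivirus range. The treated change was also called by limma voom with quality weights (limma adjusted p = 0.0153) and by edgeR on the treated groups alone (edgeR adjusted p = 0.0362). DESeq2 did not call it (DESeq2 adjusted p = 0.683). In FPKM the untreated ratio of empty vector to lentivirus was 1.00, against 0.930 in CPM, both without library 11. The share of counts from the 13 mitochondrial messenger RNAs, which Tfam's product helps to transcribe, overlapped between the vectors. With the empty vector it was 1.38%, 1.08% and 1.43% in untreated libraries 9, 10 and 12, and 2.41% in library 11. Treated libraries 13 to 16 stood higher than libraries 9, 10 and 12, at 2.48%, 2.30%, 2.88% and 2.95%. With the lentivirus it ran from 1.30% to 3.38% untreated and from 1.18% to 2.61% treated. Differences in this share were not tested.

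None of the 10 regulators was called by edgeR for a response to H2O2 in either kind of cell. In empty-vector cells 0 of 10 were called, with 0 of 10 at an unadjusted p under 0.05 and 0 by DESeq2 and by limma voom with quality weights. Over all tested genes the share called was 0% (2120 genes, 14.7%, had an unadjusted p under 0.05, DESeq2 called 38 and limma voom 98), and 0.24% without library 11, where 1994 of 14602 genes had an unadjusted p under 0.05. In lentivirus cells 0 of 10 were called, again with 0 of 10 at an unadjusted p under 0.05 and 0 by the other tools, beside 0% of all genes (255, or 1.77%, at an unadjusted p under 0.05, 1 called by DESeq2 and 24 by limma voom). Without library 11 edgeR again called 0% of all genes, and 2135 had an unadjusted p under 0.05. The difference of the responses gave 0 in the same 4 counts (DESeq2 set no adjusted p for 3 members), beside 0% of all genes (859, or 5.95%, at an unadjusted p under 0.05, 15 by DESeq2 and 21 by limma voom) and 0.192% without library 11, where 2391 had an unadjusted p under 0.05. Of the members, 1, 1 and 2 had one in these comparisons without library 11. Missing the threshold does not show that levels were equal, and the intervals give the bounds.

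Without library 11 the estimated log2 response to H2O2 of the 9 members other than Ppargc1a ran from -0.12 to 0.07 in empty-vector cells and from -0.11 to 0.05 in lentivirus cells, and the difference of responses from -0.13 to 0.17. Their 95% intervals reached from -0.29 (Ppargc1b) to 0.19 (Mff) in empty-vector cells, from -0.21 (Mff) to 0.16 (Ppargc1b) in lentivirus cells and from -0.36 (Ppargc1b) to 0.33 (Mff) for the difference. With library 11 the response in empty-vector cells ran from -0.20 (Fis1, edgeR adjusted p = 0.341) to 0.27 (Dnm1l, edgeR adjusted p = 0.525). The members that came nearest without library 11 were Opa1 in empty-vector cells (-0.08, unadjusted p = 0.0303, edgeR adjusted p = 0.297), where the untreated libraries at 114 to 117 CPM lay above the treated ones at 107 to 113 CPM. Fis1 in lentivirus cells had -0.11 (unadjusted p = 0.0311, edgeR adjusted p = 0.296), with overlapping groups. In the difference of responses they were Opa1 (-0.13, edgeR adjusted p = 0.167) and Mff (0.17, edgeR adjusted p = 0.271). Ppargc1a in lentivirus cells held 94 counts untreated and 96 treated, a log2 change of -0.07 (95% interval -1.15 to 1.02), and with the empty vector its 4 and 1 counts allow no reading.

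**Figure D3:**
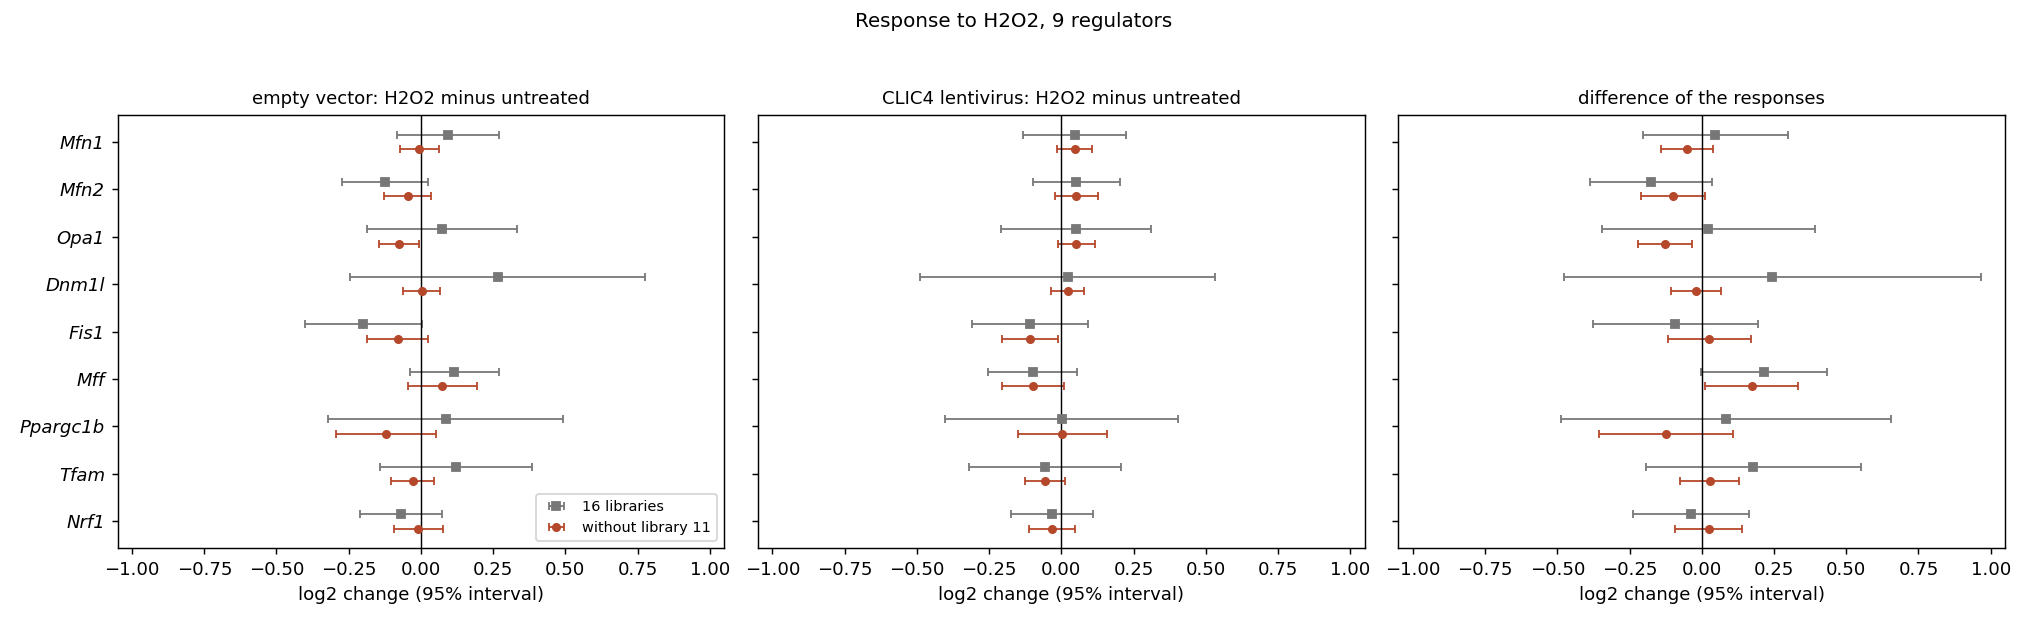
Log2 response to H2O2 of the 9 regulators other than Ppargc1a in empty-vector cells (left), in lentivirus cells (middle) and as the difference of these responses (right). Squares are the 16-library test, circles the test without library 11, and bars are 95% intervals. Without library 11 the values lie between -0.13 and 0.17 in the 3 panels, and none was called.

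Library 11 departed from its group by different amounts among the members. Against the mean of libraries 9, 10 and 12, Dnm1l stood at 33.1% and Ppargc1b at 46.2%, the members at least 2-fold lower there, while 23.1% of all tested genes were at least 2-fold lower and 17% at least 2-fold higher. Opa1 and Tfam each stood at 60.4%, Mfn1 at 73.8% and Mff at 88.7%. Above the group were Nrf1 at 117%, Mfn2 at 122% and Fis1 at 135%, and Ppargc1a held 4 counts there against 0 in the other 3 libraries. The median log2 difference over all tested genes was -0.14. These are values of 1 library and have no replicate.

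Compared per transcript length in FPKM, leaving out library 11, Fis1 was the highest member in all 4 groups, with means of 109 ± 7.96 (SD, n = 4) untreated and 103 ± 2.42 (n = 4) treated with the lentivirus, and 81.1 ± 3.52 (n = 3) and 76.5 ± 1.84 (n = 4) with the empty vector. Mff followed at 52.9 to 64.4 FPKM. Tfam and Dnm1l came next and changed places: with the lentivirus Tfam (47.3 and 46.7 FPKM) was above Dnm1l (41.2 and 42.2 FPKM), and with the empty vector Dnm1l (50.7 and 51.2 FPKM) was above Tfam (47.4 and 43.6 FPKM), although the pair overlapped in untreated empty-vector cells. Dnm1l and Mff also overlapped in both empty-vector groups. Below them were Opa1 (22.7 to 27.9 FPKM) and the mitofusins. Mfn1 (20.8 ± 1.78) and Mfn2 (19.3 ± 1.08) overlapped in untreated lentivirus cells (SD, n = 4), where Opa1 overlapped Mfn1 as well, and they overlapped in both treated groups. In untreated empty-vector cells Mfn2 (25.9 ± 0.588) lay above Mfn1 (21.1 ± 1.70) in all 3 libraries (SD, n = 3). Nrf1 (11.9 to 15.8 FPKM), Ppargc1b (1.72 to 2.27) and Ppargc1a (0 to 0.105) closed the order with no overlap between neighbours.

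Ratios between members differed with the vector. The ratio of Dnm1l to Fis1 in FPKM was 0.400, 0.375, 0.415 and 0.324 in libraries 1 to 4 and 0.421, 0.398, 0.416 and 0.401 in libraries 5 to 8. It was 0.645, 0.580, 0.147 and 0.656 in libraries 9 to 12 and 0.694, 0.671, 0.638 and 0.674 in libraries 13 to 16. Apart from library 11, every empty-vector library lay above every lentivirus library, and library 11 lay below all. The ratio of Dnm1l to Mff was 0.642 ± 0.0542 and 0.695 ± 0.0401 with the lentivirus (untreated and treated, SD, n = 4 each) and 0.961 ± 0.0582 (n = 3, without library 11) and 0.942 ± 0.0583 (n = 4) with the empty vector. The ratio of Mfn2 to Mfn1 was 0.934 ± 0.118 and 1.02 ± 0.0827 with the lentivirus (SD, n = 4 each) and 1.23 ± 0.105 (n = 3, without library 11, which stood at 1.38) and 1.17 ± 0.135 (n = 4) with the empty vector, where library 16 at 0.968 lay within the lentivirus range. In CPM the same ratio did not overlap between the vectors: it was at most 1.27 with the lentivirus and, in treated cells, at least 1.44 with the empty vector, and in untreated cells at least 1.55 with library 11 at 2.60. The ratios combine members whose differences are given above and were not tested.

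**Figure D4:**
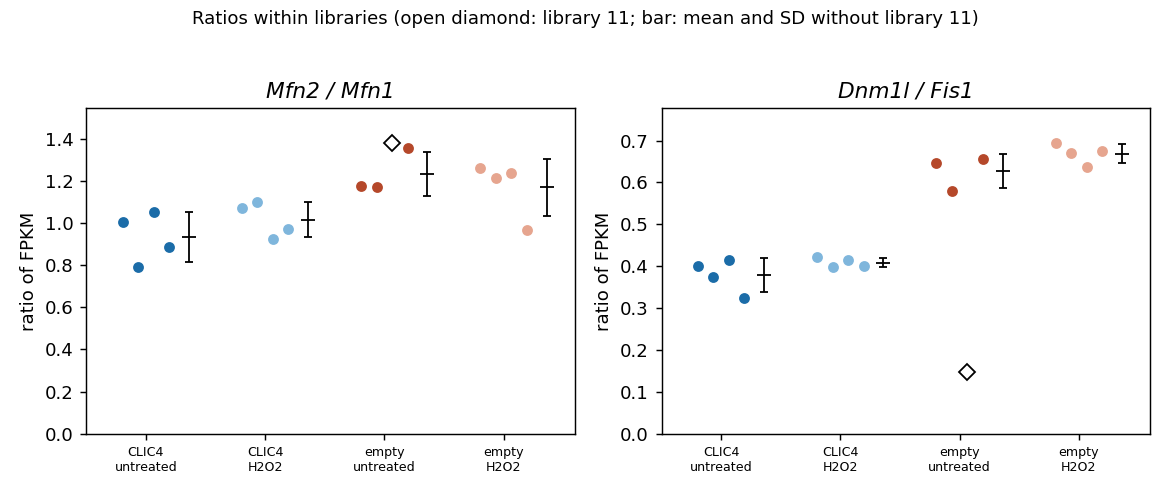
Ratio of Mfn2 to Mfn1 (left) and of Dnm1l to Fis1 (right) within each library, from FPKM, vertical axes from 0. Points are libraries, the open diamond is library 11, and bars are group means and SDs without library 11. The Dnm1l to Fis1 ratio is at most 0.421 with the lentivirus and, library 11 aside, at least 0.580 with the empty vector.

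Other genes of these pathways were followed in 7 lists with 110 tested genes. In untreated cells 24 were called higher and 25 lower with the empty vector, 44.5% of them, and without library 11 37 and 43, or 72.7%. In treated cells it was 16 and 19, 31.8%, and without library 11 37 and 41, or 70.9%. Of all tested genes 53.3% (29% higher, 24.3% lower) were called in untreated cells and 42.1% (22.1% higher, 20% lower) in treated cells. Without library 11 it was 74.4% (37% higher, 37.3% lower) and 73.8% (36.6% higher, 37.2% lower). The lists' shares were below these with 16 libraries and near them without library 11. Counts of single lists below stand beside these shares, and no list was tested against them. In each of the 3 H2O2 comparisons edgeR called 0 of the 110, with and without library 11. At an unadjusted p under 0.05 there were 9 in empty-vector cells, 2 in lentivirus cells and 2 for the difference of responses (16, 28 and 25 without library 11), and DESeq2 called 0 in each. limma voom with quality weights called 1, Primpol, a primase-polymerase of mitochondria and nucleus, in empty-vector cells (0.25, limma adjusted p = 0.0365; edgeR 0.44 with an adjusted p of 0.339, and 0.25 with 0.0522 without library 11). Primpol is named because of this value. Values in the next paragraphs are log2 changes, empty vector minus lentivirus. Genes are named by size within a condition, so a gene named in 1 condition may differ in the other too.

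Among 24 partners of fusion and fission, 8 were called higher and 3 lower in untreated cells, and 7 and 4 in treated cells (11 and 9, and 12 and 9, without library 11). The median log2 change was 0.07 untreated and 0.08 treated. Mtfr2, a fission regulator family member, was higher with the empty vector by 1.73 untreated (edgeR adjusted p = 7.99e-06; 1.5 without library 11) and 1.67 treated. Dnm2, a dynamin of membrane scission, was higher by 1.44 untreated (edgeR adjusted p = 3.07e-04; 0.94 without library 11) and 0.87 treated. Mtfp1, an inner-membrane fission protein, was lower at -0.57 untreated and -0.58 treated. Usp30, a deubiquitinase of the outer membrane, was lower at -0.39 untreated and -0.39 treated. Mul1, an outer-membrane ubiquitin ligase, was lower at -0.48 treated.

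Of 12 mitophagy genes, 4 were called higher and 5 lower untreated, and 2 and 4 treated (5 and 6, and 4 and 6, without library 11). The median was 0.17 untreated, -0.09 without library 11, and -0.16 treated. Pink1, the kinase that marks damaged mitochondria, had untreated means of 34.6 CPM (empty vector) and 78.1 CPM (lentivirus), and treated means of 40.8 and 82.8 CPM. It was lower at -1.17 (edgeR adjusted p = 2.95e-04; -0.94 without library 11) and -1.02 (edgeR adjusted p = 9.91e-04). Optn, a receptor for tagged mitochondria, was higher by 0.76 untreated (0.57 without library 11) and 0.61 treated. Bnip3, a receptor induced in hypoxia, was lower at -0.78 untreated (edgeR adjusted p = 0.0481; -0.47 without library 11), and Tax1bp1, an autophagy receptor, higher by 0.55 (0.27 without library 11).

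Of 18 biogenesis partners, 5 were called higher and 3 lower untreated, and 4 and 5 treated (6 and 6, and 5 and 9, without library 11), with medians of 0.08 and -0.07. Ppard, a nuclear receptor that works with the Ppargc1a product, was higher by 0.81 and 0.77, and Gabpb1, a subunit of nuclear respiratory factor 2, by 0.47 and 0.52, in untreated and treated cells. Rxra, the partner of many nuclear receptors, was lower at -0.81 and -0.93. The mitochondrial deacetylase Sirt3 was lower at -0.54 untreated and -0.49 treated. Sirt1, a deacetylase that acts on the Ppargc1a product, was lower at -0.63 treated (edgeR adjusted p = 0.0469).

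Of 21 genes of the mitochondrial DNA machinery, 1 was called higher and 7 lower untreated, and 2 lower treated (3 and 12, and 5 and 9, without library 11), with medians of -0.17 and -0.06. Of all tested genes 29% were called higher and 24.3% lower untreated, and 22.1% and 20% treated. Without library 11 these were 37% and 37.3%, and 36.6% and 37.2%. Lonp1, a matrix protease, was higher by 0.66 untreated (0.39 without library 11). Lower were Mterf2 at -0.89 (-0.61 without library 11) and Mterf1b at -0.91 (-0.69), both of the transcription termination factor family, in untreated cells. In treated cells Polg2, the accessory subunit of the DNA polymerase, was lower at -0.70 (edgeR adjusted p = 7.97e-05), and Twnk, the replicative helicase, at -0.29. Untreated means of Polg2 were 4.30 CPM (empty vector) and 7.01 CPM (lentivirus).

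Of 10 cristae genes, 1 was called higher and 2 lower untreated and 1 and 1 treated (3 and 4, and 3 and 2, without library 11). The medians were -0.19, or -0.06 without library 11, and -0.02. Minos1, a subunit of the cristae-organizing complex, was higher by 0.57 untreated (0.37 without library 11) and 0.50 treated, and Chchd6, of the same complex, lower at -0.64 untreated (-0.43 without library 11). Of 6 transport genes, 2 were called higher untreated and 1 treated (3 and 2 without library 11), with medians of 0.26, or 0.05 without library 11, and 0.04. Kif5b, a kinesin heavy chain, was higher by 0.51 (0.41 without library 11) and 0.25, and Trak2, a kinesin adaptor, by 1.80 untreated, which was 0.49 without library 11. Of 19 markers of mitochondrial content, 3 were called higher and 5 lower untreated and 1 and 3 treated (6 and 6 in each condition without library 11). The medians were 0.03, or -0.01 without library 11, and 0.01. The import channel Tomm40 was higher by 0.38 and 0.32, and the import receptor Tomm20 lower at -0.36 and -0.31. Cycs, cytochrome c, was higher by 0.70 untreated and 0.23 without library 11.

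Over the 15 libraries other than library 11, the genes whose centred log2 CPM followed Ppargc1a most closely were Map2 and Zfp979, with root mean square differences of 0.290 and 0.299. Map2 had a mean of 62.4 CPM in untreated lentivirus cells and 4.73 CPM in untreated empty-vector cells. The log2 scale with a prior count of 2 compresses genes with few counts, Ppargc1a among them.

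Antisense genes overlap exons of Dnm1l (Gm49521) and Mff (C430014B12Rik), and no source used here gives the strand setting of the counting. The counts given to them were at most 1 and 8 in any library.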

How the data were processed

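Illumina libraries were prepared from total RNA of 6DT1 cells, per the labels' protocols. The tools named for the authors' processing are cutadapt (a read trimmer), STAR (an aligner) and RSEM (a quantifier), and the build is mm10, per the submitters' processing notes; not given in the sources used here were tool versions and order, gene annotation and strand setting. The deposited count table holds whole numbers, whereas RSEM estimates need not be whole, so its counts may be rounded. The deposited FPKM values were scaled by the authors to transcript length and depth. In some genes the vectors' ratio differs between FPKM and counts.

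The members and gene lists were chosen with earlier results of these data known. All 10 members were named, and from each list up to 2 called genes per direction with the largest log2 change, of which the text gives most. Of the 3 genes chosen for a pattern most like Ppargc1a, 1 is not reported here. One robust quasi-likelihood fit of edgeR 4.0.16 (R 4.3.3) held 16 libraries with a coefficient per group, TMM scaling and filterByExpr, and gave 5 comparisons, each also without library 11 (14602 genes tested). SE was taken as the size of the log2 change over the square root of F. Total counts were 47.1 M to 61.9 M per library. Counting intervals are exact at 95% and, like the floor of 3 counts, cover counting error only. Genes varied between replicates by 23.1% (biological coefficient of variation), or 5.28% when library 11 was left out. No pair of libraries in a group agreed within sampling noise (lowest chi-square per degree of freedom 5.05 over 21 pairs). Positions are from GENCODE vM21, by symbol. Alternatives were RLE factors, total counts, DESeq2 1.42.0, limma 3.58.1 (voom with quality weights; log2 of FPKM + 1 and + 0.1, genes with at least 0.5 FPKM in 4 libraries, or no filter), other count filters, the compared groups alone, and leaving out each library. Total counts, and the comparison of FPKM with CPM ratios, were chosen after seeing the data. The tests were checked on simulated counts. Figures were drawn with matplotlib 3.10.9.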

Additional observations from a re-analysis of the deposited data

Results flagged for a closer look

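In groups of 4 libraries, Dixon's test at the 95% level marked 9 of the 40 sets of gene and group, where chance marks about 1 in 20. Library 11 accounts for 5 of them: within untreated empty-vector cells it was far from the other libraries for Mfn1 (46.4 CPM), Opa1 (69.9 CPM), Dnm1l (58.03 CPM), Ppargc1a (0.104 CPM, from 4 counts) and Nrf1 (36.5 CPM). In treated empty-vector cells library 16 stood above the other 3 for Mff (68.8 CPM), Tfam (63.0 CPM) and Ppargc1a (0.0177 CPM, from 1 count). For Ppargc1a the other 3 libraries of each marked set held 0 counts, and the test always marks a single value beside such ties. The chance rate does not apply to these Ppargc1a marks, which are included in the 9. In untreated lentivirus cells library 2 stood above the others for Opa1 (111 CPM).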

How the results depend on the processing

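No paired analysis was possible because the library numbers 1 to 16 are not shared between groups. Opa1 and Dnm1l in untreated cells turned from about 0 to called higher with limma voom and quality weights (0.13 and 0.26), and leaving out each library gave -0.075 to 0.14 for Opa1 and -0.11 to 0.26 for Dnm1l, the upper ends without library 11. In untreated cells 6 members were called; the 2 groups alone gave 3, and leaving out each library 5 to 9. In treated cells 4 were called; limma voom with quality weights gave 8, the 2 groups alone 8, the 10 CPM filter 2 of the 8 members it tests, and leaving out each library 3 to 8. In the H2O2 comparisons 0 members were called under every alternative run. Of 256 values of members under alternatives in untreated cells, 238 kept their side of the threshold (10 of them uncalled values that changed sign), 11 lost and 3 gained a call and 4 reversed; in treated cells it was 233 (7 with a changed sign), 9, 14 and 0 of 256. The 10 CPM filter drops Ppargc1a and Ppargc1b, and the FPKM filter Ppargc1a. Scaling by total counts moved the median log2 response of all genes to H2O2 in empty-vector cells from 0.02 to 0.12, and FPKM to 0.11 or 0.14. Depth limits Ppargc1a alone among the members: 4 and 1 counts with the empty vector.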
